A study of Arabidopsis thaliana with 3 samples.

Results

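CML37, CML38 and CML41 are 3 calmodulin-like genes of Arabidopsis thaliana. They were matched by symbol, each to a probe set that names 1 gene, and are 3 of the 13286 distinct genes that the array's annotation names singly. The members were chosen by their signals on the 3 arrays described here, so those signals and their ratios are a description and carry no test. All aerial parts of Col-0 plants were profiled on Affymetrix ATH1 arrays, which carry a group of short probes per gene. The study's 3 groups have 1 array each, so no spread between plants could be measured and no p-value is given.

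All plants were grown at 20 °C with 9 h of light and 15 h of darkness and then moved to 4 °C under the same cycle. The labels also give 2 days of stratification and growth stage 1.14 for every array. The cold-acclimated array, used as the control, came from material taken after 11 days in the cold, at hour 5 of the light period. For the recovery arrays such plants were put to freeze when their light period ended and stayed so for 20 h. The labels write the freezing temperature as 6.0 °C, with no minus sign. They were then kept in darkness at 20 °C for 3 h or 24 h. By this schedule the 3 h plants were harvested at hour 8 of the 24 h cycle and 23 h after their last light, and the 24 h plants at hour 5 and 44 h after it. Freezing, rewarming and darkness therefore cannot be told apart in a comparison with the control. The hour of harvest was matched to the control at 24 h and differed from it at 3 h. Between the recovery arrays, time at 20 °C, hours without light and hour of harvest differed together and cannot be told apart. The labels do not say how many plants were pooled for an array.

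Calmodulin-like proteins bind calcium ions through EF-hand loops and change shape when cytosolic calcium rises, which lets them pass a calcium signal on to partner proteins. Cold, wounding, touch and microbial molecules each evoke such calcium signals in leaves. CML37 is known from work on jasmonate-dependent defence against chewing insects and on drought. CML38 is known as a gene induced by low oxygen, whose protein enters cytosolic RNA granules. CML41 is known from the closure of plasmodesmata, the channels between plant cells, after bacterial flagellin is sensed.

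The 3 genes had 2 kinds of time course: CML37 and CML38 stood highest at 3 h, and CML41 stood highest at 24 h and lowest at 3 h. CML38 was 44.2-fold and CML37 13.4-fold above the control at 3 h. A day into recovery CML37 was back near its control signal and CML38 was 3.44-fold above its own. CML41 was 2.24-fold above the control at 24 h.

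CML38 (AT1G76650) had a signal of 34.1 in cold-acclimated plants, 1507 after 3 h and 117.4 after 24 h, in MAS5 signal units scaled to a common array mean. Its 3 h signal was thus far above both others, and its 24 h signal lay between them. The log2 ratio to the control was 5.46 at 3 h and 1.78 at 24 h, and the ratio of 24 h to 3 h was -3.68. The only error that these arrays offer is the disagreement between 2 probe sets of the same gene, whose SD per probe set was 0.33 log2 units for 3 h against the control (76 genes), 0.40 for 24 h against the control (76 genes) and 0.35 for 24 h against 3 h (75 genes). It covers error particular to a probe set. Error shared by a whole array cancels in it, and the spread between plants is left out. Of the signal that CML38 had gained at 3 h, 5.66% was still present at 24 h. Its ratio was the 6th highest at 3 h among 16769 probe sets measured on either array of that pair, and the 395th highest at 24 h among 16965.

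CML37 (AT5G42380) had signals of 35.7 in the control, 476.9 at 3 h and 39.1 at 24 h. In the lists of 3 values that follow, the order is control, 3 h, 24 h. One array, that of 3 h, was high, and the other two were nearly level. The log2 ratio was 3.74 at 3 h and 0.13 at 24 h. From 3 h to 24 h it was 12.2-fold lower (log2 ratio -3.61). Of its 3 h gain in signal CML37 kept 0.779% at 24 h, which cannot be told from none. Its 24 h log2 ratio of 0.13 was under the probe-set SD of 0.40. Among all measured probe sets the CML37 ratio ranked 46th highest at 3 h, and CML38 and CML37 ranked 23rd and 29th lowest for 24 h against 3 h.

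CML41 (AT3G50770) had signals of 64.9 on the control, 33.1 at 3 h and 145.5 at 24 h. Unlike for the other two genes, the 3 h array was the lowest and the 24 h array the highest. The log2 ratio to the control was -0.97 at 3 h, just inside the 2-fold limit used throughout, and 1.16 at 24 h, just outside it. Between the recovery arrays the difference was larger, 4.39-fold higher at 24 h (log2 ratio 2.13). The comparison with the control depended on scaling: with the arrays scaled to the added bacterial hybridization controls, the CML41 ratio was -1.73 at 3 h, past 2-fold, and 0.64 at 24 h, within it. The 24 h to 3 h ratio was past 2-fold under every scaling tried. For scale, of the pairs of probe sets for one gene, 5.26% gave 3 h ratios at least 2-fold apart and 7.89% gave such 24 h ratios.

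**Figure D1:**
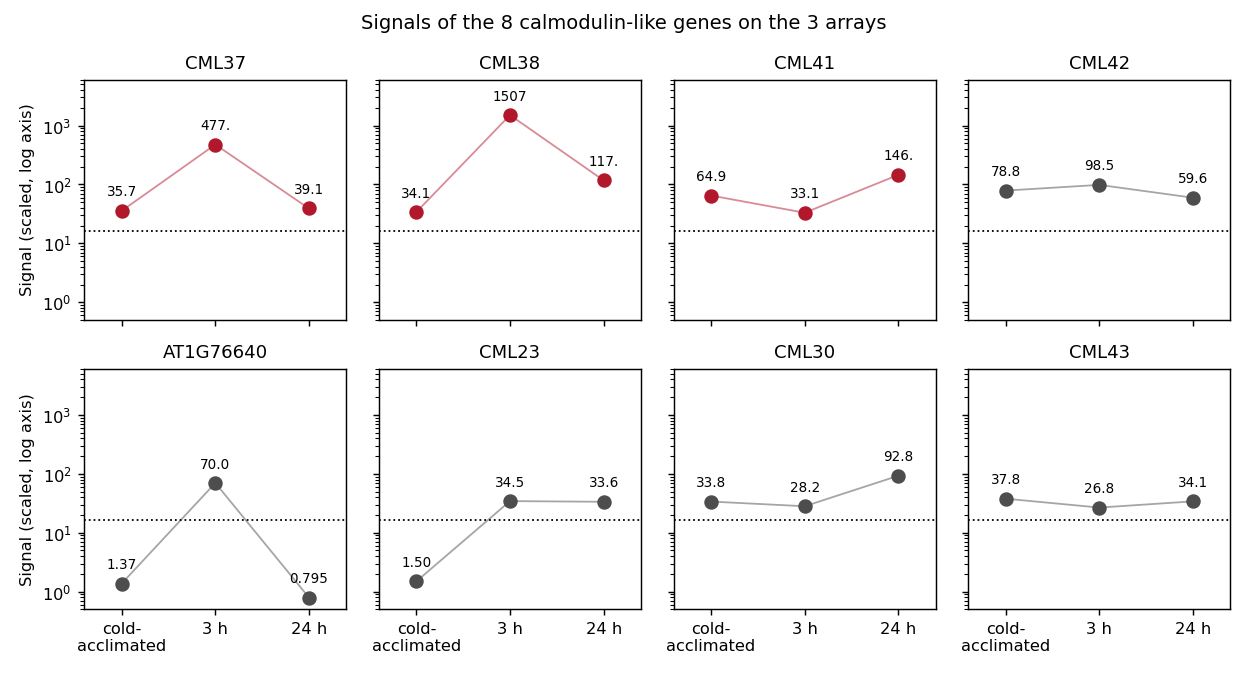
Signal of each calmodulin-like gene (vertical log axis, scaled MAS5 signal) on the cold-acclimated, 3 h and 24 h arrays, 1 array per point; CML37, CML38 and CML41 are red and the dotted line is the floor of 16.1. CML38 peaks at 1507 and CML37 at 476.9 at 3 h, while CML41 dips to 33.1 at 3 h and reaches 145.5 at 24 h.

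The annotation gave 8 calmodulin-like genes by symbol or synonym, the 3 above included. Signals under a floor of 16.1, the 30th percentile of all Arabidopsis signals, were set to the floor before a ratio was taken. At 3 h 4 of the 8 were at least 2-fold above the control and 0 were at least 2-fold below it, with a median log2 ratio of 0.71. Of all measured probe sets, 6.11% exceeded the control by at least 2-fold at 3 h and 3.95% were below it by as much, and the median was -0.13. At 24 h 4 of 7 measured genes were past 2-fold upward and 0 downward, and their median was 1.06, where 8.56% of all probe sets were higher and 8.47% lower and the median was 0.01. Between 3 h and 24 h 2 of 8 genes were higher and 3 lower, beside 10.7% and 8.67% of all probe sets, and the medians were -0.38 and 0.07. A gene below the floor on the control can be counted only as higher or within 2-fold. This held for AT1G76640 and CML23 at 3 h and for CML23 at 24 h. AT1G76640 was below the floor on both arrays of the 24 h comparison and was not counted there. Since 3 of the 8 genes were picked for their signals, the counts describe the family on these arrays and support nothing further.

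By time course the family fell into 4 pairs. CML37 and AT1G76640 were at least 2-fold higher at 3 h and not at 24 h, CML38 and CML23 were higher at both times, CML41 and CML30 at 24 h alone, and CML42 and CML43 at neither. Of all 17379 probe sets measured in any pair of arrays, these 4 patterns held 4.13%, 1.62%, 6.35% and 76.9%. A comparison in which a probe set was not measured counted as within 2-fold, as for AT1G76640 at 24 h. None of the 8 was at least 2-fold lower than the control at either time. That last count depended on the scaling, since CML41, CML30 and CML43 were at least 2-fold lower at 3 h after scaling to the hybridization controls, where 36.2% of all probe sets were.

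AT1G76640, which RefSeq lists with the synonym CML39, is the gene next to CML38 on the chromosome. RefSeq gives CML39 as a synonym of CML37 as well, so the locus code is used here. Its signal was 1.37 on the control and 0.80 at 24 h, both below the floor, and 70.0 at 3 h. It was seen on the 3 h array alone, at least 4.34-fold higher than on either of the others. The genes CML38 and AT1G76640 thus shared the 3 h peak. At 24 h CML38 was above its control signal. For AT1G76640 the 24 h ratio to the control was not measured, so the genes cannot be compared there.

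CML23 was below the floor on the control, at 1.50, and at 34.5 and 33.6 at 3 h and 24 h. This gives at least 2.13-fold and at least 2.08-fold higher signals. With the floor at the 45th percentile both CML23 differences fell inside 2-fold (log2 ratios of 0.05 and 0.01), as they did after scaling to the hybridization controls (0.78 and 0.98), so its place among the genes higher at both times rests on the floor and the scaling. CML23 has been studied together with its close relative CML24 in the timing of flowering. CML30 was at 33.8, 28.2 and 92.8, level between the control and 3 h and 2.74-fold higher at 24 h (log2 ratio 1.46, or 0.94 after scaling to the hybridization controls). Like CML41 it was higher at 24 h than at 3 h, by 3.29-fold.

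CML42, which takes part in trichome branching, was at 78.8, 98.5 and 59.6. CML43, linked to the hypersensitive response, was at 37.8, 26.8 and 34.1. Both stayed within 2-fold in every pair of arrays, the largest difference being the CML42 ratio of -0.72 for 24 h against 3 h. After scaling to the hybridization controls the CML43 ratio to the control at 3 h was -1.26, past 2-fold.

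**Figure D2:**
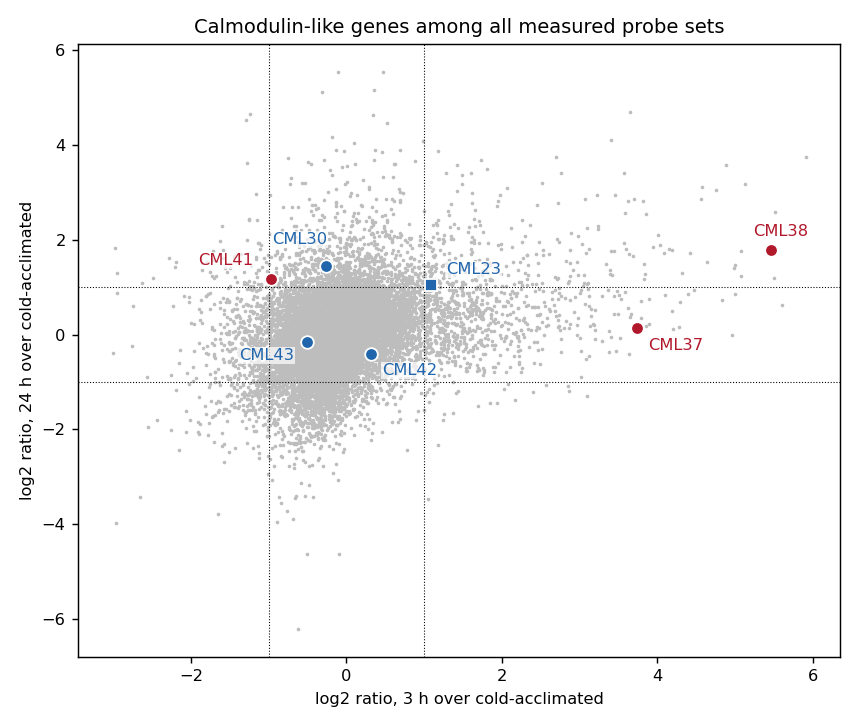
Log2 ratio to the control at 24 h (vertical) against that at 3 h (horizontal) for every probe set measured in both comparisons (grey), with calmodulin-like genes marked (red for CML37, CML38 and CML41; a square has a control signal below the floor) and dotted lines at 2-fold. CML38 and CML37 lie far right at 5.46 and 3.74, and CML41 lies at the upper left edge of the main cloud; both axes share the control array, and AT1G76640 is absent because it was not measured at 24 h.

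Genes with the most similar time course were found by the distance between the 2 log2 ratios to the control, over 3 arrays and 7885 single-gene probe sets above the floor on all of them. CML38 had 1 other gene within 0.5 log2 units, AT2G27080, at 32.7, 1107 and 110.2. The next was 1.24 units away, AT4G35985, at 35.8, 1016 and 58.9, followed by AT4G29780 (46.8, 1042 and 89.9), AT1G10585 (33.0, 777.8 and 240.4) and the expansin-like gene EXLA1 (94.5, 1550 and 350.1). CML38 therefore sat in a thinly filled region of the plot of ratios.

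CML37 had 6 genes within 0.5 units. The nearest were AT5G65300 at 59.8, 828.4 and 76.4, AT4G24380 at 77.4, 967.2 and 99.5, AT1G56660 at 60.0, 688.4 and 56.9, AT1G61890 at 61.6, 779.9 and 83.1, and AT3G44190 at 162.4, 1723 and 157.4. All 5 peaked at 3 h and were within 2-fold of the control at 24 h.

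CML41 had 97 genes within 0.5 units and 845 within 1 unit. Both distances reach ratios within 2-fold of the control at both times, so these genes need not all share its time course. The nearest was MGL, methionine gamma-lyase, an enzyme of methionine breakdown, at 45.9, 23.7 and 102.4 (distance 0.02). AT2G29290 followed at 62.3, 30.9 and 140.5, then AT3G07310 at 172.0, 89.7 and 374.7 and AT1G09010 at 116.5, 64.4 and 264.4. MCCB, a subunit of the leucine breakdown enzyme methylcrotonyl-CoA carboxylase, was the fifth, at 110.2, 60.1 and 233.9. With 3 arrays a likeness of this kind says only that the ratios are close.

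The genes beside the 3 members on the chromosome were looked up in RefSeq order. Of 6 immediate neighbours 5 were named on the array and measured, and 4 of these stayed within 2-fold in all 3 comparisons, the exception being AT1G76640. On the other side of CML38, AT1G76660 was at 38.5, 46.5 and 46.6. Beside CML37 were AT5G42370 (27.0, 28.9 and 37.8) and SPP (221.8, 245.9 and 212.4), and beside CML41 was AT3G50780 (99.2, 81.5 and 89.1). The high 3 h signal around CML38 was thus seen in the pair CML38 and AT1G76640, and not in the genes that flank that pair (AT1G76630 was at 52.1, 45.9 and 41.1).

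Other steps of calcium signalling were read from lists of gene families. No gene of the calmodulin, calcineurin B-like, calcium-dependent kinase and CBL-interacting kinase lists, nor of the 20 calcium pumps and exchangers written down, was named singly by the annotation, and these are not analysed here. Of the proteins that bind calmodulin, the annotation named 15 IQ-domain (IQD) genes, of which 10 were measured. At 3 h 2 of them exceeded the control by at least 2-fold, 1 was below it by as much, and the median was -0.28, beside 6.11% and 3.95% of all probe sets and their median of -0.13. At 24 h the counts were 1 and 0 and the median 0.22, beside 8.56%, 8.47% and 0.01, so the share of IQD genes higher at 24 h was near that of all probe sets. IQD22 was at 42.6, 245.2 and 81.1 (log2 ratio 2.52 at 3 h) and IQD23 at 66.7, 175.5 and 45.2 (1.40, or 0.63 after scaling to the hybridization controls), so both peaked at 3 h as CML37 and CML38 did. The lower gene was iqd21, at 111.1 and 49.0 (-1.18, or -0.97 with a pseudocount), with IQD24 just within 2-fold at 82.3 and 42.6 (-0.95). After scaling to the hybridization controls IQD24 (-1.71), IQD26, IQD30 and iqd32 were at least 2-fold lower at 3 h too. So were 36.2% of all probe sets. IQD19 was high at 24 h, at 17.3, 9.85 and 52.6 (1.60, or 0.66 under a higher floor, the 45th percentile), and IQD28 was at 51.7 and 102.5 on the control and 24 h arrays (0.99).

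Of the calcium channels, 8 glutamate receptor-like genes were named and 7 measured. Against the control 1 of the 7 was at least 2-fold higher at 3 h and 1 at 24 h, ATGLR1.2 both times, and 0 were lower, beside the 6.11% and 8.56% of all probe sets that were higher. ATGLR1.2 was at 37.0, 113.8 and 82.0, with log2 ratios of 1.62 at 3 h and 1.15 at 24 h. Both were within 2-fold after scaling to the hybridization controls (0.86 and 0.63), as was the 24 h ratio with a pseudocount (0.88). Under the hybridization control scaling GLR1.4, GLR2.7, GLR3.5 and GLR3.6 were at least 2-fold lower at 3 h, as were 36.2% of all probe sets. GLR3.3 and GLR3.6, which carry wound signals between leaves, were at 59.9, 54.8 and 60.9 and at 30.1, 13.6 and 34.9. The GLR3.6 signal was below the floor at 3 h, at least 1.86-fold lower than on the control.

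Lists for the known settings of the 3 genes held few named members. Of 15 low oxygen genes, the setting in which CML38 is best known, 4 were named. At 3 h 2 were at least 2-fold higher and 0 lower, beside 6.11% and 3.95% of all probe sets, and at 24 h 0 were higher and 2 lower, beside 8.56% and 8.47%. Neither of the higher genes passed 2-fold after scaling to the hybridization controls (AT4G10270 at 0.55 and AT3G10040 at 0.25). PDC2 was then lower at 3 h too (-1.24), as were 36.2% of all probe sets. AT4G10270 was at 90.2, 223.6 and 125.4 and AT3G10040 at 17.7, 35.8 and 19.4, both highest at 3 h. The AT3G10040 control signal was just above the floor of 16.1, and its 3 h log2 ratio, 1.02, was just past 2-fold. The pyruvate decarboxylase gene PDC2 was at 458.5, 328.9 and 218.3 and AT4G17260 at 233.5, 349.0 and 104.2, both lowest at 24 h. Of 12 genes of flagellin immune signalling, the setting of CML41, 3 were named. WRKY22 was at 25.4, 72.6 and 38.5 and was higher at 3 h (log2 ratio 1.51, or 0.75 after scaling to the hybridization controls), where CML41 was at its lowest. BIK1, a receptor-associated kinase, was at 144.7, 202.4 and 189.2, and WRKY53 at 148.9, 145.6 and 89.8. FER, the receptor kinase for RALF peptides, was at 413.4, 517.8 and 654.5, within 2-fold throughout. None of the 21 jasmonate genes written down for CML37, nor those of the lists for plasmodesmata, touch, and stress granules and small RNA, was named singly, so these settings are not analysed here.

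**Figure D3:**
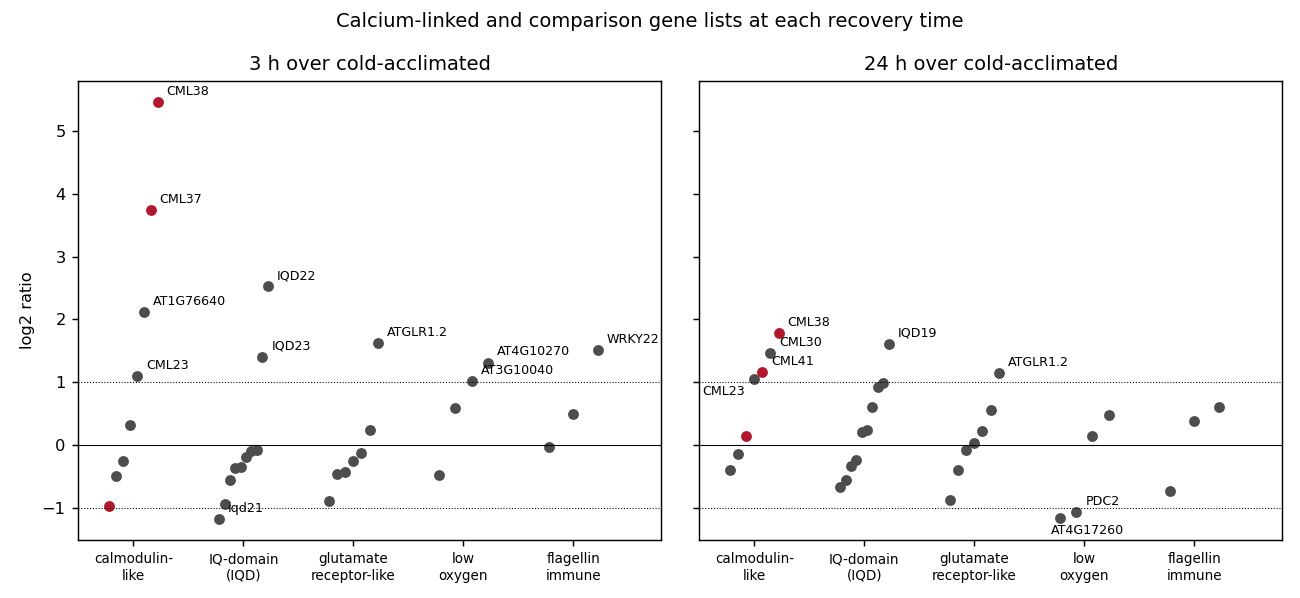
Log2 ratio to the control at 3 h (left) and 24 h (right) for each measured gene of 5 lists, 1 point per gene, with CML37, CML38 and CML41 in red, dotted lines at 2-fold and the genes past it named. At 3 h CML38 (5.46), CML37 (3.74) and IQD22 (2.52) stand highest, and at 24 h CML38 is at 1.78.

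The median Arabidopsis signal was 42.6, 39.5 and 42.8, on arrays that had been deposited at a common mean. The bacterial hybridization controls exceeded their level on the control array by 1.70-fold at 3 h and by 1.43-fold at 24 h. Of 12 green leaf markers 1 was named, RCA, the activase of Rubisco, at 3216, 2990 and 4068. Of 11 root markers 2 were named, and their summed signal was 36.2, 41.1 and 114.4. The 24 h value came from PYK10, at 15.8, below the floor, on the control, 18.6 at 3 h and 106.0 at 24 h, while the root hair expansin EXPA7 was at 20.5, 22.5 and 8.38. PYK10 thus moved with CML41 and CML30 in being highest at 24 h, and its part in those results was not tested. No flower marker of 4 was named. In whole aerial parts fewer cells that express a gene and less RNA per cell cannot be told apart.

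**Figure D4:**
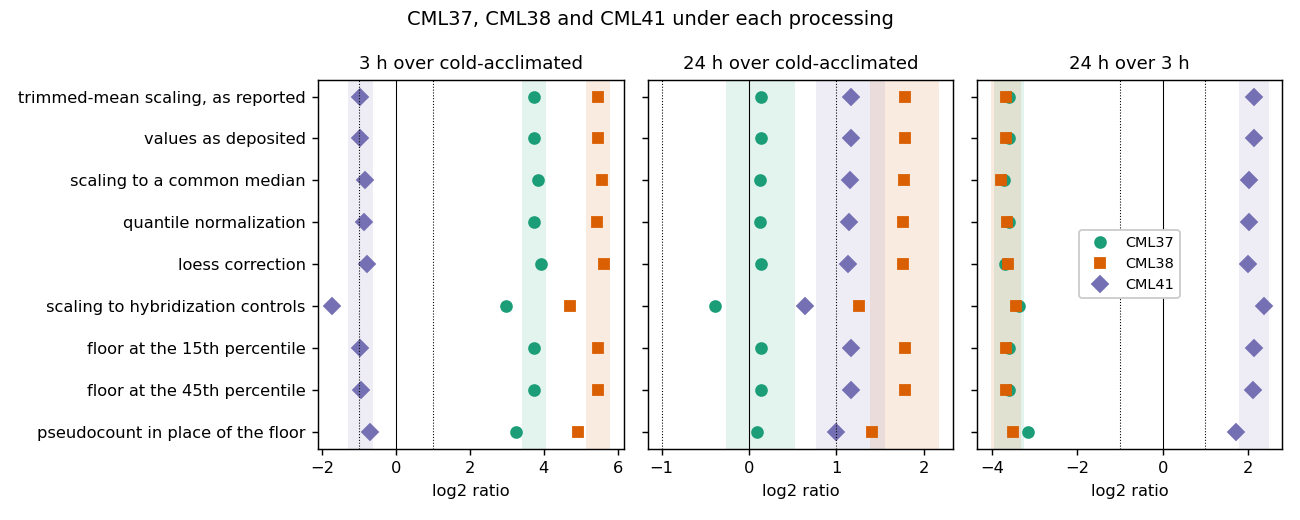
Log2 ratio of CML37, CML38 and CML41 in each pair of arrays (panels) under the processing as reported and 8 alternatives (rows); shading spans 1 probe-set SD on either side of the reported ratio, and dotted lines mark 2-fold. The 3 h ratios of CML38 stay between 4.70 and 5.63 and those of CML37 between 2.98 and 3.92, while CML41 crosses the 2-fold line against the control.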

How the data were processed

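The authors deposited 1 linear signal intensity per probe set and array, made with MAS5 per the submitters' processing notes; no version or settings are given in the sources used here. Each deposited array had a 2% trimmed mean of 100 over 22810 probe sets, so scaling to a common trimmed mean left the values almost as deposited. Signals under the 30th percentile of 22746 Arabidopsis probe sets were set to that floor, and log2 ratios were taken for each pair of arrays; a probe set below the floor on both was not measured. A difference counted as called at 2-fold. Against a signal below the floor a ratio is a bound.

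The annotation assigned a single gene to 13513 probe sets and more than one to 503, and left 8730 unnamed. Of the 13513, 13436 matched RefSeq (TAIR10.1) by gene number, which updated symbols. Coordinates are left out, as no build is named with the values. Lists were matched by symbol, synonym or locus code. The genes and lists were chosen with earlier results of these data known. Named genes were the 3 members, calcium sensor genes past 2-fold with up to 3 others, up to 4 genes of each other list with the largest ratio at each time, and the 5 nearest time courses per member.

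The ratio and counting functions were tested on simulated data. Alternatives were the deposited values, median, quantile, loess and hybridization control scaling, a lower (15th percentile) and a higher (45th percentile) floor, adding the floor to every signal as a pseudocount, and dropping probe sets marked as cross-hybridizing. Calculations used numpy 2.4.6, pandas 2.3.3 and, for loess, statsmodels 0.14.6 under Python 3.11.15. The number of arrays limits the precision.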

Additional observations from a re-analysis of the deposited data

Results flagged for a closer look

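CML41, chosen by these signals, had a log2 ratio to the control of -0.97 at 3 h and 1.16 at 24 h, values of opposite sign, or -1.73 and 0.64 after scaling to the hybridization controls. The difference between these ratios, 2.13, was not tested, since each time had 1 array and both ratios share the control array.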

How the results depend on the processing

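No paired analysis was possible because each group held 1 array and the titles give all of them the same replicate number; for the same reason no replicate could be left out. Of 180 alternative values for the 3 genes, the calmodulin-like counts and the counts over all probe sets, 156 stayed within 1 probe-set SD or 1.5 times the reported value, and none of the 8 alternatives run for CML37 or CML38 changed which side of 2-fold they lay on. Part of that agreement was fixed in advance. The deposited values were almost those reported, and CML37 and CML38 lay above the lower and the higher floor, so these settings could not move them. Scaling to the hybridization controls shifted the median of all log2 ratios by -0.71 at 3 h, -0.48 at 24 h and 0.22 for 24 h against 3 h. At 3 h it gave CML37 2.98, CML38 4.70 and CML41 -1.73, and at 24 h CML37 -0.39, CML38 1.26 and CML41 0.64. Relative to the median of all probe sets under that scaling, CML38 at 3 h was at 5.55 and CML37 at 3.83. It also gave 3 calmodulin-like genes lower at 3 h and 1 higher at 24 h, beside 36.2% and 3.82% of all probe sets. With a pseudocount CML37 was at 3.25 and CML38 at 4.92 at 3 h, and for 24 h against 3 h CML37 was at -3.16 and CML41 at 1.71; a pseudocount draws ratios of dim signals towards 0, and CML41 at 24 h against the control was then 0.995, within 2-fold.

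Over all probe sets, hybridization control scaling gave 439 higher and 6274 lower at 3 h, and 672 higher and 3867 lower at 24 h, against 1024 and 663, and 1453 and 1437, as reported. Of the called differences at 3 h 60.7% were higher as reported, 6.54% with that scaling and 73.9% after loess; at 24 h the shares were 50.3% and 14.8%, and for 24 h against 3 h 55.2% and 72.4%. The floor at the 15th percentile, which tests more probe sets, gave 1659 higher and 1446 lower at 3 h, 2234 and 2195 at 24 h, and 2258 lower for 24 h against 3 h. At 3 h 434 were lower after loess, 403 under the higher floor (45th percentile) and 392 with a pseudocount. Dim signals limit CML23 and AT1G76640, which are known on some arrays as bounds.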

Other observations

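Among genes that RefSeq ties to calcium or calmodulin outside the families above, 2 were picked after their values were seen. CaS, the calcium-sensing protein of the chloroplast thylakoid, was at 639.2 on the control, 442.3 at 3 h and 773.1 at 24 h, within 2-fold throughout. AT4G35987, calmodulin N-methyltransferase, which adds methyl groups to calmodulin, was at 26.0, 39.3 and 28.3, also within 2-fold. CaS was thus lowest at 3 h and highest at 24 h, the same order of arrays as CML41. Its 24 h log2 ratio to the control, 0.27, was under the probe-set SD of 0.40, so that order is uncertain. The likeness to CML41 was not tested.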
